A study of Mus musculus with 12 samples.

Results

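Heat shock chaperone genes were followed in macrophages (Mφ) sorted from the hearts of mice under β-adrenergic stimulation. They are 10 genes taken by their symbols (Hspa1a, Hspa1b, Hspa8, Hsp90aa1, Hsp90ab1, Hsph1, Dnajb1, Dnaja1, Hspd1 and Hspe1), of 24445 gene symbols in the count tables, and all 10 were among the 14608 genes that passed the filter on low counts. The 12 libraries came from adult male C57BL6/J mice, with 1 library per mouse and 4 mice in each of 3 groups. Pumps of control (Ct) mice held saline, and the sources used here do not tell which of the infusion times given next applied to them. Mice with early concentric hypertrophy (ECH) had received isoproterenol, an agonist of β-adrenergic receptors, at 30 mg/kg/day for 14 days, and mice with heart failure (HF) had received the same dose for 28 days. The cells were CD14+/CD64+ cells obtained by fluorescence-activated sorting from digested hearts, and their RNA was copied into cDNA by a low-input method (SMART-Seq v4). Totals ran from 88466559 to 111180291 counts per library. Levels below are CPM, counts relative to library sizes scaled by TMM, and p-values are given by edgeR's quasi-likelihood test with Benjamini-Hochberg adjustment over all genes tested (FDR).

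Heat shock proteins hold unfolded proteins and help them to fold. HSP70 proteins (Hspa1a, Hspa1b, Hspa8) bind short hydrophobic stretches of a client, J-domain partners (Dnajb1, Dnaja1) deliver clients and start ATP hydrolysis, and the HSP110 protein Hsph1 exchanges the nucleotide. HSP90 proteins (Hsp90aa1, Hsp90ab1) act later on kinases and receptors, while HSP60 (Hspd1) and its lid HSP10 (Hspe1) form a folding chamber in mitochondria. In stressed cells the transcription factor HSF1 binds inverted repeats of the pentamer NGAAN, called heat shock elements, and raises transcription of the inducible members, among which Hspa1a and Hspa1b are the classical examples. Hspa8 and Hsp90ab1 are largely constitutive. Warm enzymatic digestion of a tissue is also known to raise such genes.

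Promoters are shown because the members are textbook targets of HSF1 and because 2 pairs of them are physically linked. RefSeq entries (GRCm38.p6) were at hand for 7 members, and Hspa8, Hsp90aa1 and Hsp90ab1 were not matched. The 250 bases before each start were searched for GAANNTTC and TTCNNGAA, each of which is its own reverse complement, so that both strands were covered. Either motif was found in 7 of the 12 promoter entries of the members, which belong to 6 of the 7 members, against 12.8% of 32851 promoter entries of the same length. The entries with a motif are not independent. Those of Hsph1 overlap, Hspd1 and Hspe1 share their motifs, and the windows of Hspa1a and Hspa1b are nearly identical. In the sequences below, 5′ to 3′ on the strand of the gene, capitals mark these motifs.
Hspa1a, chr17:34972157-34972406, minus strand: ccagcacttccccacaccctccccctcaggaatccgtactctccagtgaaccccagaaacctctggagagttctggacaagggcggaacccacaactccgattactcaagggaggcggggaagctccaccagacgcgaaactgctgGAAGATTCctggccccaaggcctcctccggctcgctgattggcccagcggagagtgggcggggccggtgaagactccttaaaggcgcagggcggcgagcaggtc
Hspa1b, chr17:34959239-34959488, minus strand: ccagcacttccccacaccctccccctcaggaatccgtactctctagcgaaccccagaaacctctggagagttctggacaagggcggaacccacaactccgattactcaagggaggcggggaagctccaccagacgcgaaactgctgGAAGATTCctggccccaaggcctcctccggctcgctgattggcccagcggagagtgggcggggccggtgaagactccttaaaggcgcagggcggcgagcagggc
Hspe1, chr1:55087898-55088147, plus strand: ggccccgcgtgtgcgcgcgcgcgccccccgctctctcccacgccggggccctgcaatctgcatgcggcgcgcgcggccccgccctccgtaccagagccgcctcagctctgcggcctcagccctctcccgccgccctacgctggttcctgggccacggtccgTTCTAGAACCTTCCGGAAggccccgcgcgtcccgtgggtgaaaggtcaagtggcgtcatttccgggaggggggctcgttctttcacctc
Hsph1, chr5:149636316-149636565, minus strand: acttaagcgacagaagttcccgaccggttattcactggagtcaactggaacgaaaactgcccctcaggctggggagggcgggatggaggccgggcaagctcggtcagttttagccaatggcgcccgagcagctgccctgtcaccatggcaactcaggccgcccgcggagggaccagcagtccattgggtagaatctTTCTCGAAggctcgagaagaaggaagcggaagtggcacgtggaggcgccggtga
Dnaja1, chr4:40722218-40722467, plus strand: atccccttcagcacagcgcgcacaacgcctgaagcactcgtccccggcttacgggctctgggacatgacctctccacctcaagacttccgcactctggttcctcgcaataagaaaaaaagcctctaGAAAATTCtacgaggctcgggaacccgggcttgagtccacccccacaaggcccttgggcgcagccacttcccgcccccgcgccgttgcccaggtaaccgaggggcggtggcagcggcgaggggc
The windows of Hspa1a and Hspa1b differed at 3 of 250 positions (98.8% identity), and both held a motif whose first base lay 104 bases before the start. In Dnaja1 this distance was 124 bases, and in the Hsph1 entry shown 54 bases. Hspe1 is transcribed away from Hspd1, and the run of overlapping motifs in its window, which also lies in a window of Hspd1, contained 4 alternating units. Runs of at least 3 units were found in 0.466% of all promoters and runs of at least 4 in 0.0213%. In the entries of Dnajb1 neither string of letters was present.

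The inducible HSP70 genes had the highest mean levels per kilobase of exons in Ct and the same mice at their extremes. Hspa1a had on average 1021 CPM per kilobase in Ct, 541 in ECH and 592 in HF, beside 643, 569 and 632 CPM per kilobase of the constitutive Hspa8. Lengths here and below are those of all annotated exons of a gene together (2967 bases for Hspa1a, 2803 for Hspa1b and 4301 for Hspa8). Levels and ratios per length, and their order, therefore depend on which isoforms were expressed, which was not examined. On GRCm38, Hspa1a (chromosome 17, 34969190 to 34972156, minus strand) and Hspa1b (chromosome 17, 34956436 to 34959238, minus strand) lie close to each other. Of the 75-base stretches of their transcripts, 61.7% for Hspa1a and 55.8% for Hspa1b also occur in other genes, mostly in each other, so that their separate counts are uncertain. Hspa1a was at 5290.2, 1923, 2032 and 2874 CPM in Ct mice 1 to 4, 2432, 2668, 604 and 713 CPM in ECH mice 1 to 4, and 2780.3, 1072, 1041 and 2134 CPM in HF mice 1 to 4. Ct mouse 1 stood above all others, ECH mice 3 and 4 stood below all others, and the 3 groups overlapped. Against Ct, the log2 fold change of Hspa1a was −0.92 (SE 0.51, FDR 0.512) in ECH and −0.79 (SE 0.51, FDR 0.483) in HF. Hspa1b was at 5794, 1509, 1322 and 2656 CPM in Ct mice 1 to 4, 2109, 2365, 359 and 319 CPM in ECH mice 1 to 4, and 2360.3, 688, 818 and 2442 CPM in HF mice 1 to 4. Its levels spanned 18.1-fold between the highest and the lowest library, the widest range of the 10 genes, with Ct mouse 1 at the top and ECH mouse 4 at the bottom. The log2 fold change of Hspa1b was −1.13 (SE 0.70, FDR 0.565) for ECH against Ct and −0.84 (SE 0.69, FDR 0.601) for HF against Ct, so that neither exceeded the spread between mice. Without Ct mouse 1 these values were −0.50 and −0.37 for Hspa1a and −0.50 and −0.21 for Hspa1b, each closer to 0 by more than 1.5 times.

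The constitutive HSP70 gene Hspa8 (chromosome 9, 40800984 to 40810087, plus strand), which also uncoats clathrin vesicles, was less variable. It was at 3734, 2155, 2929.6 and 2248 CPM in Ct mice 1 to 4, 3828, 3107, 1462 and 1396 CPM in ECH mice 1 to 4, and 3102, 3029.7, 2233 and 2504 CPM in HF mice 1 to 4. Again ECH mice 3 and 4 were lowest, while ECH mouse 1 was the highest of all. The log2 fold change was −0.18 (SE 0.30, FDR 0.87) for ECH and −0.03 (SE 0.30, FDR 0.981) for HF against Ct, and without Ct mouse 1 it was 0.0038 and 0.15. The range over all libraries was 2.74-fold. Per length of exons, the summed Hspa1a and Hspa1b level was 1.70 to 4.44 times that of Hspa8 in Ct, 0.976 to 2.41 times in ECH and 0.862 to 2.73 times in HF. Of the Hspa8 75-base stretches, 33.0% occur in other annotated genes, mostly in the pseudogene Gm15459.

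Of the HSP90 genes, inducible Hsp90aa1 (chromosome 12, 110690605 to 110702728, minus strand) had the lowest p-values of the 10 genes against Ct. It was at 1540.4, 1258, 552 and 681 CPM in Ct mice 1 to 4, 640.0, 691, 166 and 206 CPM in ECH mice 1 to 4, and 688, 438, 268 and 543 CPM in HF mice 1 to 4. Ct mice 1 and 2 exceeded every ECH and HF mouse, while Ct mice 3 and 4 lay within the ranges of both groups. The log2 fold change was −1.24 (SE 0.48, unadjusted p = 0.0216, FDR 0.315) for ECH and −1.06 (SE 0.48, unadjusted p = 0.0443, FDR 0.298) for HF against Ct. By edgeR no other member had an unadjusted p under 0.05 in these comparisons. Its constitutive paralog Hsp90ab1 (chromosome 17, 45567775 to 45573271, minus strand) was at 1234, 774, 1062 and 755 CPM in Ct mice 1 to 4, 1055, 1076, 457 and 423 CPM in ECH mice 1 to 4, and 1189, 858, 809 and 1139.6 CPM in HF mice 1 to 4. For this gene the HF values lay within the Ct range, and the log2 fold change was −0.35 (SE 0.30, FDR 0.7) for ECH and 0.06 (SE 0.30, FDR 0.945) for HF against Ct (−0.20 and 0.21 without Ct mouse 1). The ratio of Hsp90aa1 to Hsp90ab1 per length lay between 0.397 and 1.24 in Ct, between 0.276 and 0.490 in ECH and between 0.253 and 0.442 in HF. Shared 75-base stretches made up 42.8% of Hsp90aa1 and 0.537% of Hsp90ab1.

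The nucleotide exchange factor Hsph1 (chromosome 5, 149614287 to 149636376, minus strand) was the least abundant member. It was at 139, 17.2, 29.3 and 25.4 CPM in Ct mice 1 to 4, 48.2, 60.2, 19.9 and 13.1 CPM in ECH mice 1 to 4, and 57.8, 35.4, 29.2 and 50.6 CPM in HF mice 1 to 4. The value of Ct mouse 1 was far from those of the other Ct mice, which were below all HF mice with the exception of Ct mouse 3, at nearly the level of HF mouse 3. Accordingly the log2 fold change of Hsph1 depended on this mouse, being −0.29 (SE 0.62, FDR 0.866) for HF against Ct with all mice and 0.85 without Ct mouse 1, and −0.58 (SE 0.62, FDR 0.766) for ECH against Ct with all mice and 0.56 without it.

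The J-domain partners had similar profiles over the 12 libraries (r = 0.980, a description). Dnajb1 (chromosome 8, 83608193 to 83612653, plus strand), which stimulates inducible HSP70, was at 514, 287, 160.3 and 213 CPM in Ct mice 1 to 4, 281, 178, 71.1 and 99.7 CPM in ECH mice 1 to 4, and 243, 152, 112 and 166 CPM in HF mice 1 to 4. Dnaja1 (chromosome 4, 40722150 to 40737149, plus strand), a farnesylated J-domain protein, was at 1125, 583, 361 and 391 CPM in Ct mice 1 to 4, 519.8, 443, 151 and 173 CPM in ECH mice 1 to 4, and 519.9, 358, 217 and 305 CPM in HF mice 1 to 4. In both genes Ct mouse 1 was highest and ECH mice 3 and 4 were lowest. The log2 fold change of Dnajb1 was −0.90 (SE 0.43, FDR 0.432) for ECH and −0.80 (SE 0.43, FDR 0.381) for HF against Ct. For Dnaja1 it was −0.94 (SE 0.45, FDR 0.438) and −0.81 (SE 0.45, FDR 0.401) in the same order. Without Ct mouse 1 the values were −0.48 and −0.38 for Dnajb1 and −0.47 and −0.35 for Dnaja1.

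In the mitochondrial pair, Hspd1 (chromosome 1, 55077835 to 55088243, minus strand) was the steadiest member and Hspe1 (chromosome 1, 55088132 to 55091307, plus strand) was more variable. Hspd1 was at 175, 109, 158 and 105 CPM in Ct mice 1 to 4, 173, 161, 95.4 and 94.1 CPM in ECH mice 1 to 4, and 148, 165, 127 and 179.8 CPM in HF mice 1 to 4. Hspe1 was at 130.3, 65.3, 61.2 and 41.7 CPM in Ct mice 1 to 4, 66.7, 68.9, 28.6 and 26.9 CPM in ECH mice 1 to 4, and 98.0, 50.6, 52.4 and 78.5 CPM in HF mice 1 to 4. Hspd1 spanned 1.91-fold over the libraries and Hspe1 4.84-fold, and ECH mice 3 and 4 were lowest for both. The log2 fold change was −0.06 (SE 0.23, FDR 0.948) for Hspd1 and −0.64 (SE 0.39, FDR 0.56) for Hspe1 in ECH against Ct, and 0.18 (SE 0.23, FDR 0.761) and −0.09 (SE 0.39, FDR 0.935) in HF against Ct. Without Ct mouse 1 the values of Hspd1 were 0.08 in ECH and 0.33 in HF, and those of Hspe1 −0.23 and 0.32.

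**Figure D1:**
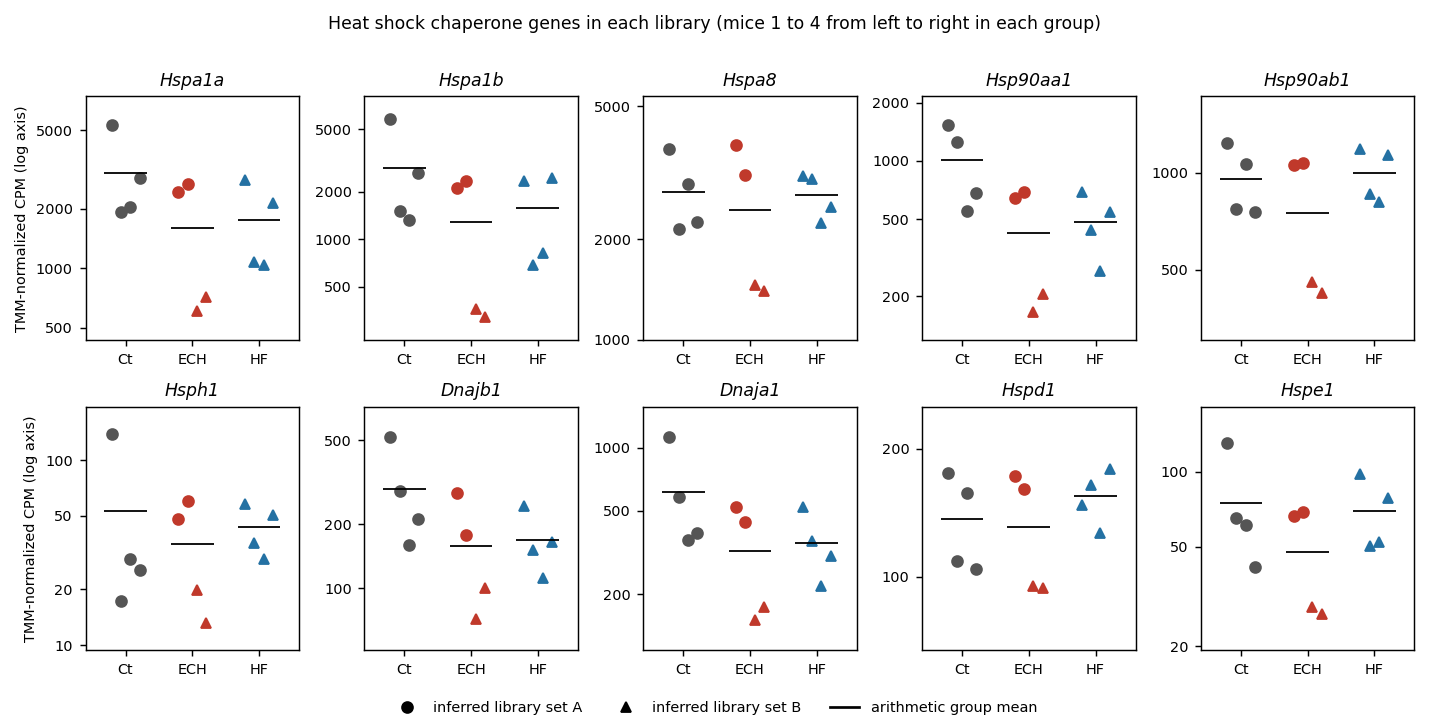
TMM-normalized CPM of the 10 genes on log axes, with 1 point per mouse, circles and triangles for the inferred library sets A and B, and a line at the arithmetic mean of each group. Ct mouse 1 is the highest point in 8 of the 10 panels, and ECH mice 3 and 4 (red triangles) are the lowest pair in 9.

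Taking the 10 genes as a list, 0 were called (at least 2-fold changed, with an FDR under 0.05) between ECH and Ct (0.356% of all genes tested), 0 between HF and Ct (0.377%) and 0 between ECH and HF (0%). With an unadjusted p under 0.05 by edgeR, 1 of 10 was lower in ECH than Ct (5.89% of all genes) and 1 of 10 was lower in HF than Ct (8.72%), in both cases Hsp90aa1, and 0 were lower in ECH than HF (2.81%). By the same measure 0 members were higher in ECH (6.03% of all genes) or in HF (7.35%) than in Ct. DESeq2 likewise called 0 members in each comparison (1.7%, 2.3% and 0.322% of all genes), and so did limma-voom with quality weights (0.575%, 0.89% and 0%). By limma-voom, however, 5 of 10 members had an unadjusted p under 0.05 and were lower in ECH than Ct (6.31% of all genes), namely Hsp90aa1, Hspa1a, Hspa1b, Dnajb1 and Dnaja1, and all of these but Hspa1b, 4 of 10, were so in HF against Ct (10.3%). Its lowest FDR among the members was 0.233 and 0.161 in these comparisons, and its medians were −0.95 and −0.83. The median log2 fold change of the members was −0.77 for ECH against Ct, −0.54 for HF against Ct and −0.21 for ECH against HF, where the medians of all genes were 0.01, −0.01 and 0.02. Between ECH and HF the values ran from −0.55 for Hspe1 (SE 0.39, FDR 0.783) to −0.10 for Dnajb1 (SE 0.42, FDR 0.99). The fold changes of 10, 8 and 10 members were below 0 (48.9%, 51.2% and 48% of all genes). Every ECH mouse lay below every Ct mouse for 0 of 10 members (3.64% of all genes), every HF mouse below every Ct mouse for 0 (4.45%) and every ECH mouse below every HF mouse for 0 (3.36%). The comparisons share libraries in pairs, so they are not independent. Without Ct mouse 1 the median became −0.35 for ECH against Ct and −0.03 for HF against Ct, and without ECH mice 3 and 4 together it became −0.20 for ECH against Ct and 0.39 for ECH against HF. With the inferred library set, described below, as covariate, it was −0.19 for ECH against Ct, 1.18 for HF against Ct and −1.26 for ECH against HF. In that fit the set effect comes from the ECH mice alone.

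**Figure D2:**
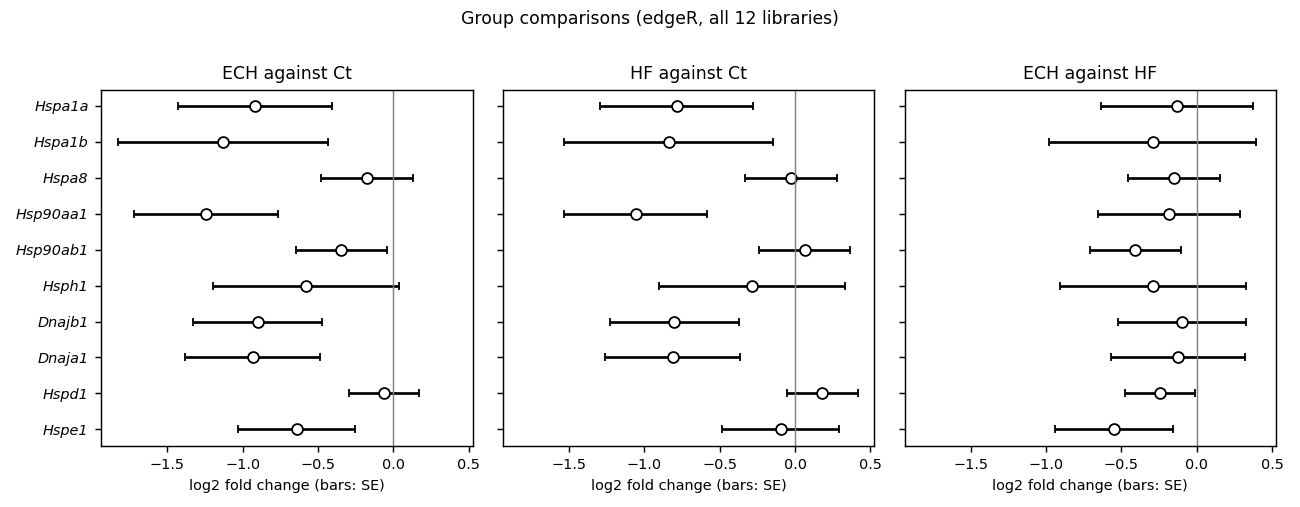
Log2 fold changes of the 10 genes for ECH against Ct, HF against Ct and ECH against HF, with bars for the standard error, from 1 fit of all 12 libraries. Open points are genes that were not called, and 0 of 10 members were called in each panel.

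Most members had their extremes in the same mice. Their summed share of all counts was lowest in ECH mouse 3 (0.356%) and highest in Ct mouse 1 (1.96%). Ct mouse 1 held the highest value of 8 of the 10 genes (6.85% of all genes tested), the exceptions being Hspa8 and Hspd1. ECH mice 3 and 4 held the lowest pair of values for 9 of the 10 (5.05% of all genes), the exception being Hsph1.

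**Figure D3:**
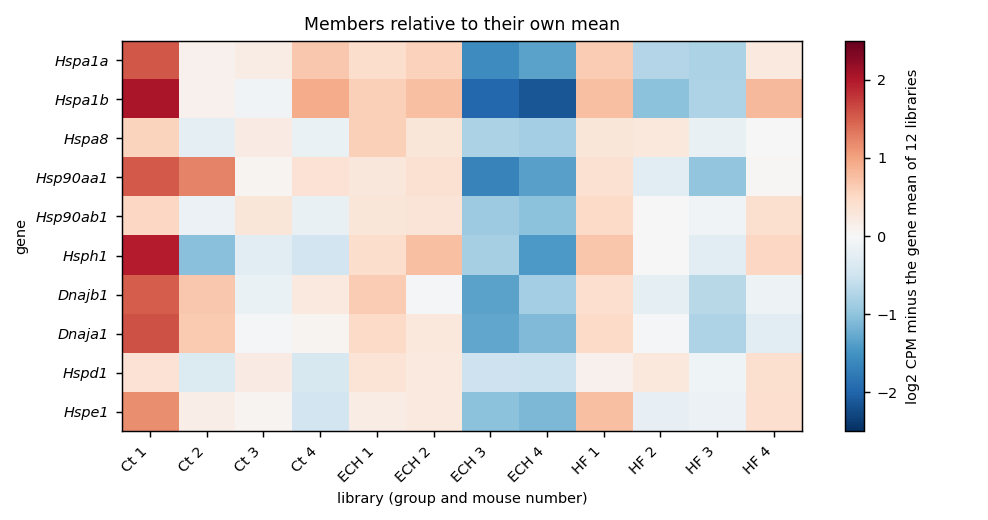
Log2 CPM of each gene (rows) in each library (columns) minus the mean of that gene over the 12 libraries, with red above and blue below the mean. The column of Ct mouse 1 is red for all genes and the columns of ECH mice 3 and 4 are blue for all genes, with the strongest contrast for Hspa1b, whose range was 18.1-fold.

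Library numbers in the labels divide the samples, by inference, into sets, with the Ct mice and ECH mice 1 and 2 in set A, and the HF mice and ECH mice 3 and 4 in set B. Whether the sets were handled separately is not stated in the sources used here. All Ct libraries are in set A and all HF libraries in set B, so HF against Ct and set cannot be told apart. The bracketed codes in the sample titles share their first part between ECH mice 3 and 4, between Ct mice 1 and 2, between Ct mice 3 and 4 and between HF mice 1 and 2, while ECH mice 1 and 2 differ in it. What this code stands for is not stated in the sources used here, and for ECH mice 3 and 4 it cannot be told apart from the set. After ECH mice 3 and 4 had been seen to be the lowest pair for most members, the ECH group was divided by set in a fit of all 12 libraries, so the values of that fit describe this observation and are given here with no test. In ECH mice 3 and 4 against ECH mice 1 and 2 the median log2 fold change of the members was −1.50 (0.02 over all genes). Medians of markers of other cells between these pairs were −1.33 for B cells (6 of 6 below 0), −1.04 for T and NK cells (8 of 9 below 0), 1.13 for neutrophils (7 of 10 above 0), 0.63 for endothelial cells (8 of 10 above 0) and 0.59 for cardiomyocytes (9 of 10 above 0). Markers of the sorted Mφ themselves had a median of −0.15, with 8 of 10 below 0. Among these, Adgre1, the gene of F4/80, was at 1319.5, 1311, 755 and 579 CPM in ECH mice 1 to 4 and the lysozyme gene Lyz2 at 21129.6, 18990.1, 13154 and 12791 CPM, both lower in mice 3 and 4. The part of these markers in the values of the members was not tested. The members ran from −2.72 for Hspa1b to −0.82 for Hspd1, with Hspa1a at −1.95 and both Hspa8 and Hsp90ab1 at −1.28. Whether the pairs of ECH mice differed by set, by code, by day or by animal was not tested.

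In set A, ECH mice 1 and 2 had a median log2 fold change of −0.19 against the Ct mice over the members, with 6 of 10 below 0. Here the log2 fold changes ran from −0.60 (Hsp90aa1) to 0.33 (Hspa8). In set B, ECH mice 3 and 4 had a median of −1.26 against the HF mice. With the sets crossed, the members had a median of 0.40 in ECH mice 1 and 2 relative to HF and of −1.73 in ECH mice 3 and 4 relative to Ct. Fits on the libraries of 1 set alone do carry a test. In set A 0 of 10 members were called (0.00674% of all genes). In set B 2 of 10 were called (2.49% of all genes), Hsp90ab1 at −1.18 (SE 0.19, edgeR FDR 0.0150) and Hspe1, the co-chaperonin, at −1.33 (SE 0.30, edgeR FDR 0.0433). Since its ECH libraries were already known as the lowest for 9 of the 10 genes, the calls in set B restate this and are not independent support. Over all settings the FDR of Hsp90ab1 for ECH against HF ran from 0.0150 to 1 and that of Hspe1 from 0.0433 to 1.

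**Figure D4:**
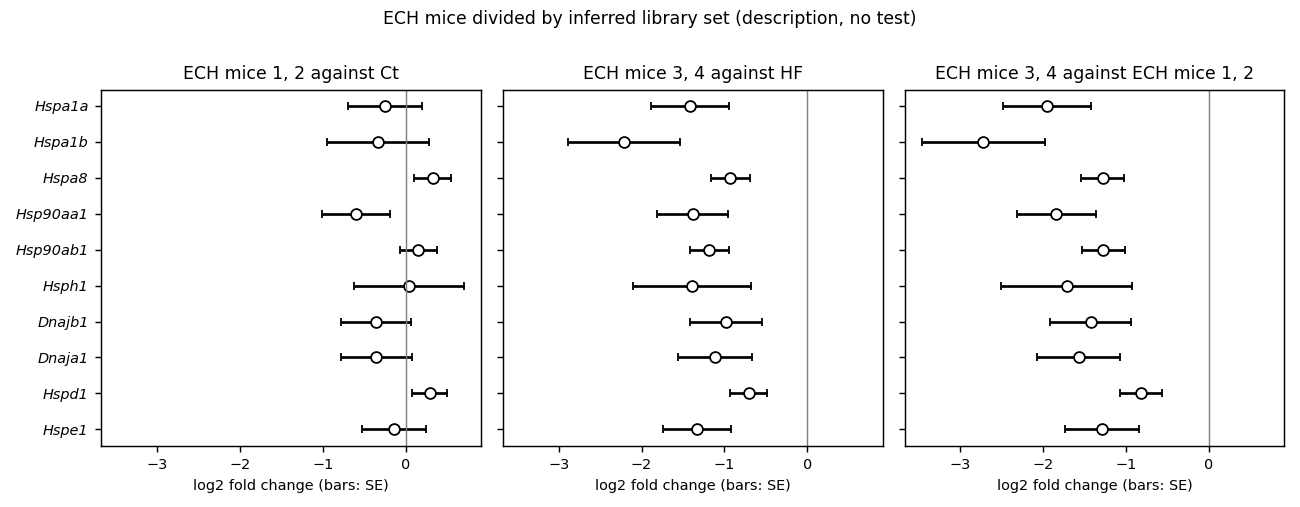
Log2 fold changes of the 10 genes with standard errors after the ECH mice were divided by inferred library set, a division made after their values were seen and shown with no test. ECH mice 1 and 2 against Ct lie around 0 (median −0.19), while ECH mice 3 and 4 lie below HF (median −1.26) and below ECH mice 1 and 2 (median −1.50).

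Over the 12 libraries the members went up and down together. Each gene was correlated with the mean of the other 9, on standardized log2 CPM, with Pearson's r from 0.749 (Hspd1) to 0.937 (Hspe1), a description over libraries that also share depth and set. For 5 pairs a permutation test with 100000 resamples was made and adjusted over the pairs, and both coefficients are given. Hspa1a and Hspa1b had r = 0.984 (2-sided permutation p, adjusted, 0.0001, n = 12 libraries) and rho = 0.930 (adjusted permutation p = 0.0004), and r was 0.973 without ECH mice 3 and 4, the libraries farthest from the median for the first gene of every pair. This relation includes the reads they share. Hspd1 and Hspe1 had r = 0.782 (adjusted permutation p = 0.00475) and rho = 0.755 (adjusted permutation p = 0.0166), but r = 0.545 (permutation p = 0.102) without the same mice, so that passing the threshold rested on them. Hsp90aa1 and Hsp90ab1 had r = 0.734 (adjusted permutation p = 0.00912) and rho = 0.587 (adjusted permutation p = 0.0596), and r fell to 0.277 (permutation p = 0.438) without those mice, so that the relation rested on them. Hspa1a and Hsph1 had r = 0.763 (adjusted permutation p = 0.0061), rho = 0.706 (adjusted permutation p = 0.0215) and r = 0.645 (permutation p = 0.0437) without those mice. Hspa1a and the immediate early gene Fos had r = 0.596 (adjusted permutation p = 0.0425), rho = 0.510 (adjusted permutation p = 0.0935) and r = 0.485 (permutation p = 0.155) without those mice, where 10 libraries remain. The latter r is not far from the former, but it does not pass the threshold. Libraries were shuffled across the groups, so a shared difference between groups enters these p-values. Over residuals from the group means, r of Hspa1a with Fos was 0.428 (permutation p = 0.166). For the earlier pairs, in the order given, it was 0.985, 0.808, 0.810 and 0.863 (permutation p = 2.0e-05, 0.00362, 0.00287 and 0.00015). Within sets A and B, each of 6 libraries, r was 0.987 and 0.976 for Hspa1a with Hspa1b, 0.662 and 0.850 for Hspd1 with Hspe1, 0.0662 and 0.939 for Hsp90aa1 with Hsp90ab1, 0.858 and 0.915 for Hspa1a with Hsph1, and 0.257 and 0.229 for Hspa1a with Fos.

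Of 8638 other genes of at least 10 CPM on average, the 8 whose log2 CPM was most like the mean profile of the members over 12 libraries were Dusp8 (r = 0.900), Scimp (0.898), Lilra5 (0.872), Crem (0.870), Hspa5 (0.860), Cd83 (0.860), Ctbp2 (0.859) and Gpr84 (0.856). Hspa5, the HSP70 protein of the endoplasmic reticulum, was the only one of them on a chaperone list.

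Other parts of the chaperone network were read from lists. Of 131 listed genes tested, those of the dissociation list below included, edgeR called 0 in the 3 group comparisons. DESeq2 called 1 of them for ECH against Ct (1.7% of all genes), 3 for HF against Ct (2.3%) and 1 for ECH against HF (0.322%), and limma-voom with quality weights called 0 (0.575%), 1 (0.89%) and 0 (0%) in this order. The chaperones among these were Fkbp5 and Sdf2l1, both by DESeq2 alone of these tools. Hsf1, the heat shock factor, was at 46.5 ± 8.39 CPM in the Ct mice, 49.9 ± 6.31 CPM in the ECH mice and 59.8 ± 9.30 CPM in the HF mice (SD, n = 4), with a log2 fold change of 0.36 (SE 0.16, unadjusted p = 0.0418, FDR 0.293) for HF against Ct. For its binding partner Hsbp1 the log2 fold change was 0.32 (SE 0.13, unadjusted p = 0.0359, FDR 0.279) in the same comparison. Fkbp5, an HSP90 co-chaperone induced by glucocorticoids, was at 50.5, 195, 53.2 and 148 CPM in Ct mice 1 to 4, 205, 175, 692 and 603 CPM in ECH mice 1 to 4, and 139.6, 61.1, 35.4 and 81.3 CPM in HF mice 1 to 4. ECH mice 3 and 4, lowest for most members, were the highest for Fkbp5. Its log2 fold change was 1.91 (SE 0.57, unadjusted p = 0.00534, FDR 0.192) for ECH against Ct and 2.40 (SE 0.58, unadjusted p = 0.00118, FDR 0.491) for ECH against HF, a difference that DESeq2 called (2.39, SE 0.63, FDR 0.0359). Of 17 HSP90 co-chaperones, 2 exceeded Ct in ECH at an unadjusted p under 0.05 (6.03% of all genes) and 0 lay below it (5.89%), namely Fkbp5 and Sgta, the latter with a log2 fold change of 0.31 (SE 0.10, FDR 0.258).

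Among 8 other HSP70 and HSP110 genes 1 was lower in both ECH (5.89% of all genes) and HF (8.72%) than Ct at an unadjusted p under 0.05. This was Hspa2, abundant in the testis, with a log2 fold change of −0.70 (SE 0.31, FDR 0.404) in ECH and −0.72 (SE 0.31, FDR 0.283) in HF. Hspa12a was near the limit of detection, with 0, 0, 0.130 and 0 CPM in the HF mice. Among 14 other J-domain genes, Dnaja2 was at 134 ± 3.78 CPM in the Ct mice, 168 ± 8.38 CPM in the ECH mice and 144 ± 4.43 CPM in the HF mice, with a log2 fold change of 0.33 (SE 0.10, unadjusted p = 0.00453, FDR 0.175) for ECH against Ct by edgeR (FDR 0.00248 by DESeq2), and the log2 fold change of Dnajc5 was 0.41 (SE 0.15, FDR 0.564) for ECH against HF. Of 9 HSP70 co-chaperones, Bag1, a nucleotide exchange factor, had a log2 fold change of 0.46 (SE 0.12, FDR 0.126) by edgeR (FDR 0.0134 by DESeq2 and 0.0332 by limma-voom) and Bag6 of −0.36 (SE 0.17, FDR 0.311) for HF against Ct.

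Of the 8 small heat shock proteins 7 were tested, and Hspb3 was at 0 in all libraries. Hspb1 was at 43.4, 20.3, 16.4 and 20.3 CPM in Ct mice 1 to 4, 17.7, 14.8, 6.17 and 12.1 CPM in ECH mice 1 to 4, and 24.9, 10.7, 8.70 and 16.4 CPM in HF mice 1 to 4. The log2 fold change of Hspb1 was −0.98 (SE 0.41, unadjusted p = 0.0315, FDR 0.362) for ECH against Ct, with the lowest value in ECH mouse 3 and the highest in Ct mouse 1. Hspb8 lay at or below 1.84 CPM in every library, with a log2 fold change of −3.12 (SE 1.20, FDR 0.239) for HF against Ct. Among 14 genes of the cytosolic chaperonin and prefoldin, 4 were higher (7.35% of all genes) and 1 lower (8.72%) in HF than Ct at an unadjusted p under 0.05, among them Cct4 with a log2 fold change of 0.37 (SE 0.14, FDR 0.224) and Pfdn5 with −0.62 (SE 0.25, FDR 0.256). Of 13 mitochondrial chaperones and proteases 2 were higher in ECH than Ct by the same measure (6.03%), the protease subunit Clpx with a log2 fold change of 0.41 (SE 0.15, FDR 0.298) and mitochondrial HSP70, Hspa9, with 0.39 (SE 0.16, FDR 0.376). Of 16 other genes commonly induced by heat, 1 was lower (5.89%) and 0 higher (6.03%) in ECH than Ct at an unadjusted p under 0.05.

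Of 19 endoplasmic reticulum chaperones edgeR called 0, while 10 were higher (7.35% of all genes) and 0 lower (8.72%) in HF than Ct at an unadjusted p under 0.05, with a median log2 fold change of 0.46. Sdf2l1 was at 70.8 ± 20.3 CPM in the Ct mice, 79.8 ± 39.0 CPM in the ECH mice and 142 ± 16.0 CPM in the HF mice, a difference between HF and Ct with an unadjusted p of 0.00636 and an edgeR FDR of 0.166. DESeq2 called Sdf2l1 in this comparison, just past the fold minimum (SE 0.31 on the log2 scale, FDR 0.0300). For Dnajb11, an HSP40 of this compartment, the log2 fold change in the same comparison was 0.62 (SE 0.17, unadjusted p = 0.00306, FDR 0.129) by edgeR, with an FDR of 0.0196 by DESeq2 and 0.0457 by limma-voom at less than a 2-fold change. Between the pairs of ECH mice the median of this list was −0.78 (a description, as for the members), with 18 of 19 below 0. Hspa5 was at 1515, 1154, 1234 and 939 CPM in Ct mice 1 to 4, 1583, 1650.3, 629 and 577 CPM in ECH mice 1 to 4, and 1266, 1467, 1195 and 1413 CPM in HF mice 1 to 4.

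**Figure D5:**
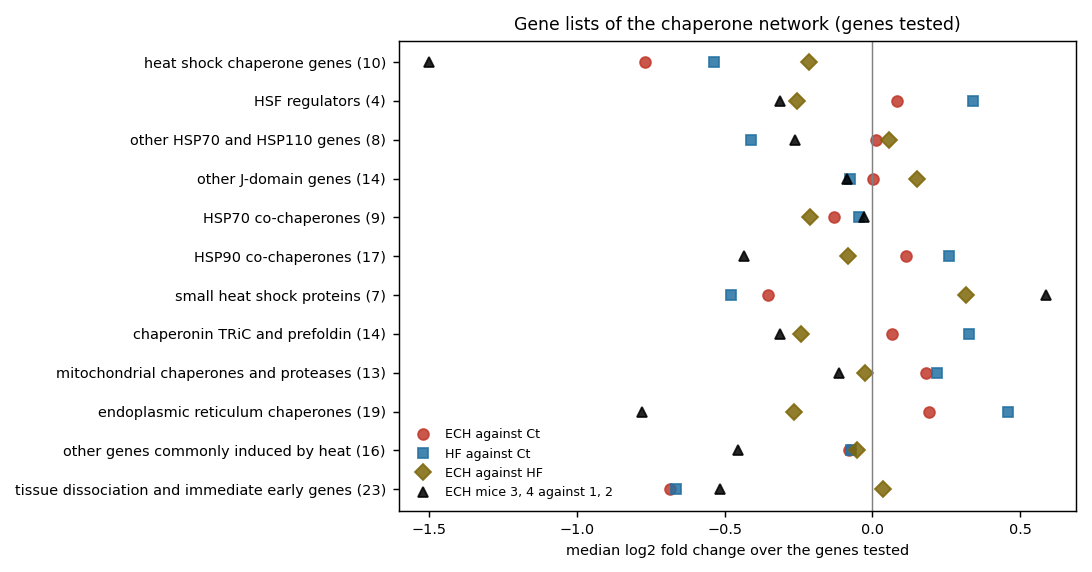
Median log2 fold change over the genes tested in each list (number of genes in brackets) for the 3 group comparisons and for ECH mice 3 and 4 against ECH mice 1 and 2. Among the lists drawn, which leave out cell markers, the members have the lowest median in that last comparison (−1.50), followed by the endoplasmic reticulum chaperones (−0.78), and HF against Ct is at 0.46 for the latter and at −0.54 for the members.

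Of 23 genes known to rise during tissue dissociation, among them Fos, Jun and Atf3, edgeR called 0 against Ct. At an unadjusted p under 0.05, 16 were lower in ECH (5.89% of all genes) and 16 in HF (8.72%) and 0 were higher in either, and the median log2 fold changes were −0.68 and −0.67. DESeq2 called Fosb in ECH (−1.85, SE 0.59, FDR 0.0497) and in HF (−1.84, SE 0.59, FDR 0.0395) and Klf2 in HF (−1.01, SE 0.27, FDR 0.00982), and limma-voom called Ppp1r15a in HF (−1.13, SE 0.27, FDR 0.0470). The 23 genes together were at 47601 to 59314 CPM in the Ct mice, 23441 to 50189 in the ECH mice and 25347 to 43783 in the HF mice. Log2 fold changes for ECH against Ct were −0.82 (SE 0.23, unadjusted p = 0.00305, FDR 0.151) for Btg2, with an FDR of 0.0129 by DESeq2, and −0.74 (SE 0.24, unadjusted p = 0.00839, FDR 0.231) for Ier2. Between the pairs of ECH mice the median was −0.52, with 23 of 23 below 0, a description as well. Their part in the values of the members was not tested.

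The sorted cells carried the markers of their gate, with a summed level of 10 Mφ markers of 30841 to 33892 CPM in the Ct mice, 31745 to 43054 in the ECH mice and 33687 to 42174 in the HF mice. Markers of other cells were low beside these. The 10 cardiomyocyte markers summed to 106 to 270.5 CPM in the Ct mice, 97.5 to 186 in the ECH mice and 77.8 to 134 in the HF mice, the 10 neutrophil markers to 368 to 1762 CPM in the Ct mice, 195 to 697 in the ECH mice and 131 to 1267 in the HF mice, and the 6 B cell markers found in the files to 100.1 to 461 CPM in the Ct mice, 36.1 to 82.0 in the ECH mice and 50.7 to 77.4 in the HF mice. At an unadjusted p under 0.05, 5 of 6 B cell, 2 of 10 neutrophil, 3 of 9 T and NK cell and 1 of 10 cardiomyocyte markers were lower in ECH than Ct (5.89% of all genes), and 0 of them were higher. In HF against Ct (8.72%) these numbers were 5, 4, 1 and 3, again with 0 higher. The 9 fibroblast markers summed to 30.4 to 199.9 CPM in the Ct mice, 91.3 to 478 in the ECH mice and 82.7 to 255 in the HF mice, with median log2 fold changes of 1.17 in ECH and 0.64 in HF, 8 and 9 of 9 above 0, and 1 and 0 higher at an unadjusted p under 0.05. The 10 endothelial markers summed to 10.2 to 34.0 CPM in the Ct mice, 17.7 to 43.5 in the ECH mice and 12.5 to 28.2 in the HF mice, with medians of 0.61 and −0.04, and 0 and 1 were higher by that measure. Of neither list was a gene lower by that measure. Among 6 monocyte markers, which summed to 291 to 593 CPM in the Ct mice, 517 to 690.0 in the ECH mice and 539 to 906 in the HF mice, 2 exceeded Ct and 1 lay below it in ECH by that measure, 1 and 1 did so in HF, with medians of 0.71 and 0.12. The part of such cells in the results was not tested, and in bulk RNA fewer expressing cells and less RNA per cell cannot be told apart.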

How the data were processed

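RNA of the sorted cells of 12 mice was made into cDNA with SMART-Seq v4 and sequenced from both ends on a NextSeq instrument. After trimming (Trimmomatic), the authors aligned reads to mm10 (TopHat2) and counted them per gene (featureCounts). The files hold the raw counts as deposited by the authors, without normalization, with 1 sample per file. The sources used here give no software version, annotation or strand setting.

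The counts went into edgeR 4.0.16 under R 4.3.3 (filterByExpr, TMM, quasi-likelihood fit of 1 mean per group over all 12 libraries, common dispersion 0.370), with limma 3.58.1 and DESeq2 1.42.0 among the alternatives. Benjamini-Hochberg adjustment ran over 14608 genes, and called genes had at least a 2-fold change with an FDR under 0.05. Correlations used log2(CPM + 0.1). Counting error is small at these totals (88466559 to 111180291), so that the 4 mice per group limit the precision. Each p-value of a group comparison sets the difference between groups against the spread between mice. Those of correlations come from shuffling libraries. As a check for duplicated libraries, counts were compared within groups, and the lowest chi-square per degree of freedom was 139. The scripts were tested on simulated data.

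Gene positions and shared 75-base stretches were taken from GENCODE M21 (GRCm38) and promoters from RefSeq. The members, the gene lists and the tests were chosen with earlier results of these data known. All members are named, and of each other chaperone list and of the dissociation list the 2 genes of lowest unadjusted p in any group comparison. Fosb, Klf2, Ppp1r15a, Adgre1 and Lyz2, and the division of the ECH mice by inferred set, were chosen after the values were seen. Alternatives were RLE scaling, DESeq2, limma-voom with quality weights, other filters and thresholds, fits of compared groups alone, a replicate block, a covariate for inferred set, fits within a set, and libraries left out.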

Additional observations from a re-analysis of the deposited data

Results flagged for a closer look

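The Hsph1 level of Ct mouse 1 was flagged because it lay far from the other mice of its group, at 139 CPM against 17.2 to 29.3 CPM in Ct mice 2 to 4 (a gap of 0.901 of the range of the group, past the 95% critical value of Dixon's test). It was the 1 value flagged among 33 groups of values examined, the 10 genes and their summed share of counts in 3 groups each, and chance flags about 5% of such groups. Ct mouse 1 was also the highest library for 8 of the 10 genes.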

How the results depend on the processing

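The number of members called was 0 in all 3 group comparisons under RLE scaling, DESeq2, limma-voom with quality weights, both other filters, the fits of compared groups alone, the replicate block, an FDR threshold with no fold minimum and each library left out. At an unadjusted p under 0.05 with a fold of at least 2 it was 1 for ECH against Ct and 1 for HF against Ct. For ECH against HF it was 1 when inferred set was a covariate and 2 within the set, with a median log2 fold change of −1.26 in both. With set as covariate this comparison is that of ECH mice 3 and 4 with HF, so that both fits restate that these mice were seen to be lowest. For HF against Ct the median became 1.18 with set as covariate, a fit in which the set effect comes from the ECH mice alone. The same-numbered libraries of different groups did not deviate together (r from −0.076 to 0.083, 0 of 12 above 0.1), so the numbers do not pair the mice, and with the replicate block the medians were −0.79 for ECH against Ct, −0.36 for HF against Ct and −0.34 for ECH against HF. The number of genes called over all genes changed with the setting, from 1 to 248 for ECH against Ct, from 15 to 336 for HF against Ct and from 0 to 370 for ECH against HF. Of 200 simulated 2-fold changes between ECH and Ct, 42 were recovered by edgeR.

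Of 680 values of single members under alternatives 76 had the opposite sign, 50 of them within 1 SE of 0 in both fits, and of 1353 values of other named genes 31 had. In the edgeR fit of all libraries with no covariate, no member and no gene named from the other chaperone and dissociation lists had an FDR under 0.05. Under alternatives this FDR was reached by 5 values of members, 4 within the set and 1 with set as covariate. It was also reached by 25 values of other named genes from these lists. Of these, 9 were with DESeq2, 6 with set as covariate, 5 within the set, 2 with limma-voom, 2 without Ct mouse 3 and 1 without ECH mice 3 and 4. With set as covariate the log2 fold changes of opposite sign were Dnaja1 0.76, Dnajb1 0.62, Hsp90aa1 0.78, Hspa1a 1.17, Hspa1b 1.88, Hspa8 1.25, Hspb1 0.099, Hspe1 1.19 and Hsph1 1.43 for HF against Ct, Hsp90ab1 0.16, Hspa8 0.33, Hspd1 0.29 and Hsph1 0.038 for ECH against Ct, and Btg2 −0.25, Hspa2 −0.11 and Ier2 −0.015 for ECH against HF. Within the set they were Hsp90ab1 0.15, Hspa8 0.32, Hspd1 0.28 and Hsph1 0.029 for ECH against Ct and Btg2 −0.25, Hspa2 −0.11 and Ier2 −0.016 for ECH against HF. Without ECH mice 3 and 4, an alternative added after seeing the data, they were Hsp90ab1 0.15, Hspa8 0.32, Hspd1 0.28 and Hsph1 0.030 for ECH against Ct and Dnaja1 0.45, Dnajb1 0.44, Hsp90aa1 0.45, Hsp90ab1 0.082, Hspa1a 0.53, Hspa1b 0.49, Hspa8 0.34, Hspa9 0.16, Hspb1 0.087, Hspd1 0.10, Hsph1 0.31 and Sgta 0.034 for ECH against HF. With limma-voom they were Dnaja1 0.022, Dnajb1 0.0075, Hspa1a 0.051 and Hspb1 0.014 for ECH against HF and Hsp90ab1 −0.13 for HF against Ct. With the replicate block they were Hspe1 0.0093 and Hsph1 0.11 for HF against Ct. Without Ct mouse 2 and HF mouse 1, the libraries with the fewest genes detected, they were Dnaja1 0.13, Dnajb1 0.13, Hsp90aa1 0.028, Hspa1a 0.18 and Hspb1 0.086 for ECH against HF and Hsp90ab1 −0.13 for HF against Ct. The causes were not tested.

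With each library left out in turn, the lowest and highest log2 fold changes of the genes that changed sign were −0.019 and 0.15 for Cct4, −0.013 and 0.15 for Hsbp1, −0.48 and 0.018 for Hspa8, −0.22 and 0.084 for Hspd1, −0.96 and 0.56 for Hsph1, and −0.076 and 0.40 for Sdf2l1 for ECH against Ct. For HF against Ct they were −0.034 and 0.21 for Hsp90ab1, −0.13 and 0.15 for Hspa8, −0.30 and 0.32 for Hspe1, and −0.58 and 0.85 for Hsph1. For ECH against HF they were −0.14 and 0.23 for Btg2, −0.45 and 0.13 for Dnaja1, −0.53 and 0.15 for Dnajb1, −0.52 and 0.081 for Hsp90aa1, −0.49 and 0.18 for Hspa1a, −0.76 and 0.031 for Hspa1b, −0.18 and 0.22 for Hspa2, −0.45 and 0.043 for Hspa8, −0.13 and 0.041 for Hspa9, −0.46 and 0.091 for Hspb1, −0.031 and 0.32 for Ier2, −0.043 and 0.059 for Pfdn5, and −0.055 and 0.028 for Sgta. The r of Hspa1a with Fos ran from 0.47 (without ECH mouse 3) to 0.69 and was 0.43 (permutation p = 0.166) over residuals from the group means. That of Hsp90aa1 with Hsp90ab1 ran from 0.62 (without ECH mouse 3) to 0.85.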
